A study of Mus musculus with 4 samples.

Results

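The hypoxia-inducible factors (HIFs) and the enzymes that sense oxygen for them were followed as a set of 10 genes: Epas1, Hif1a, Hif3a, Arnt, Vhl, Egln1, Egln2, Egln3, Vegfa and Ndrg1. All 10 were among the 25124 gene symbols listed for the study. They were chosen by gene function with the values of both groups already known, so their differences between groups are given as a description, without a test. The study sequenced RNA of sorted airway epithelium from wild-type (WT) C57BL/6 mice. The SCD1 inhibitor + HDM group (2 samples) came from mice given an inhibitor of stearoyl-CoA desaturase 1, the enzyme that puts a double bond into saturated fatty acids. The DMSO + HDM group (2 samples) came from mice given dimethyl sulfoxide, a solvent used as vehicle. Both groups carried the same exposure to house dust mite (HDM), an inhaled allergen. The labels give neither age, inhibitor name, dose nor time, nor whether a sample is 1 mouse or a pool. Each library held 24591122 to 27013663 reads assigned to genes, as recovered from the deposited values.

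A HIF is a pair of proteins, an oxygen-labile alpha subunit and the stable partner encoded by Arnt. With oxygen present, prolyl hydroxylases of the Egln family mark the alpha subunit, the protein encoded by Vhl recognises the mark, and the subunit is degraded. When oxygen falls, the alpha subunit persists and turns on genes of glycolysis, vessel growth and iron handling. In lung, the alpha subunit encoded by Epas1 is known from vessel endothelium and from alveolar type 2 cells, the surfactant-making cells of the air sacs. Most of this control acts on protein, which RNA sequencing does not measure.

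RefSeq promoter sequences (GRCm38.p6) were at hand for 8 of the 10 genes; Epas1 and Ndrg1 were not matched. The letters searched for were the core of the element that HIFs bind, ACGTG or GCGTG on either strand, in the 250 bases before the annotated start. A CACGTG is counted on both strands. Of the 8 genes, 6 had a match before their first start, and 38.6% of all 32851 promoter windows of that length had one. Those windows belong to 27025 genes and include later starts, and they were not matched for base content. The shares therefore count unlike units. A match is a description of the sequence and no sign of binding. One sequence is shown for each role, an alpha subunit, a hydroxylase and a target, with matches in capitals. They lie at chr12:73907617-73907866 on the plus strand for Hif1a, chr7:27166803-27167052 on the minus strand for Egln2 and chr17:46032378-46032627 on the minus strand for Vegfa.
Hif1a: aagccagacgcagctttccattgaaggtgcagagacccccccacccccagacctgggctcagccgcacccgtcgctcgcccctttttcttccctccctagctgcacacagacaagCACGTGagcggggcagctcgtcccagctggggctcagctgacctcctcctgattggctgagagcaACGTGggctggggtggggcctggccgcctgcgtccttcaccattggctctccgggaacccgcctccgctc
Egln2: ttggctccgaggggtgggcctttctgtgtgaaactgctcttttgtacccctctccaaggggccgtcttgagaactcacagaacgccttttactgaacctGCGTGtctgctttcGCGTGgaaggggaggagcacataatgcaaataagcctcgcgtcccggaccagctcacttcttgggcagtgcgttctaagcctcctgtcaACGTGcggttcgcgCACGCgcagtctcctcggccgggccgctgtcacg
Vegfa: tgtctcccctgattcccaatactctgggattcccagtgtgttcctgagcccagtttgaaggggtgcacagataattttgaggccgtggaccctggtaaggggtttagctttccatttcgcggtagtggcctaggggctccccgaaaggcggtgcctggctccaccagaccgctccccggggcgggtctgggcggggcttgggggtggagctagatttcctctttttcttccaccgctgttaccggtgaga

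Hif1a had 3 matches, of which a forward and a reverse one share the CACGTG that begins 135 bases before the start. Egln2 had 4 matches, 3 of GCGTG and 1 of ACGTG. The Vegfa sequence had none, while a second annotated start of Vegfa had 2. The bases before that second start, chr17:46025164-46025413, lie inside the gene itself, which spans 46016993 to 46032369. The bases shown for Hif1a also lie inside their gene, which spans 73901375 to 73947530. A second annotated start of Egln2 had 1 match, in bases that lie inside the Egln2 gene. Before the starts of Hif3a and Egln1 there were 2 matches each, for Arnt and Egln3 there was 1 each, and for Vhl there was none.

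Epas1 had the widest gap between the groups among the members tested. Its value was 9649 and 9735 normalised reads in the SCD1 inhibitor + HDM libraries, against 14951 and 14771 in the DMSO + HDM libraries. A normalised read is taken here as a read assigned to the gene, divided by a single factor of its library. That reading comes from the steps of the deposited values. The inhibitor libraries were both low, the replicates of each group lay close together, and the groups did not overlap. The mean was 9692 ± 60.8 with the inhibitor and 14861 ± 127 with DMSO (SD, n = 2 each), 1.53-fold lower with the inhibitor. On the scale of the fit across all genes the log2 fold change was -0.62 ± 0.10 (SE), with 5.10% of the genes tested lower still. Epas1 spans chromosome 17, 86753700 to 86833410, plus strand (mm10).

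**Figure D1:**
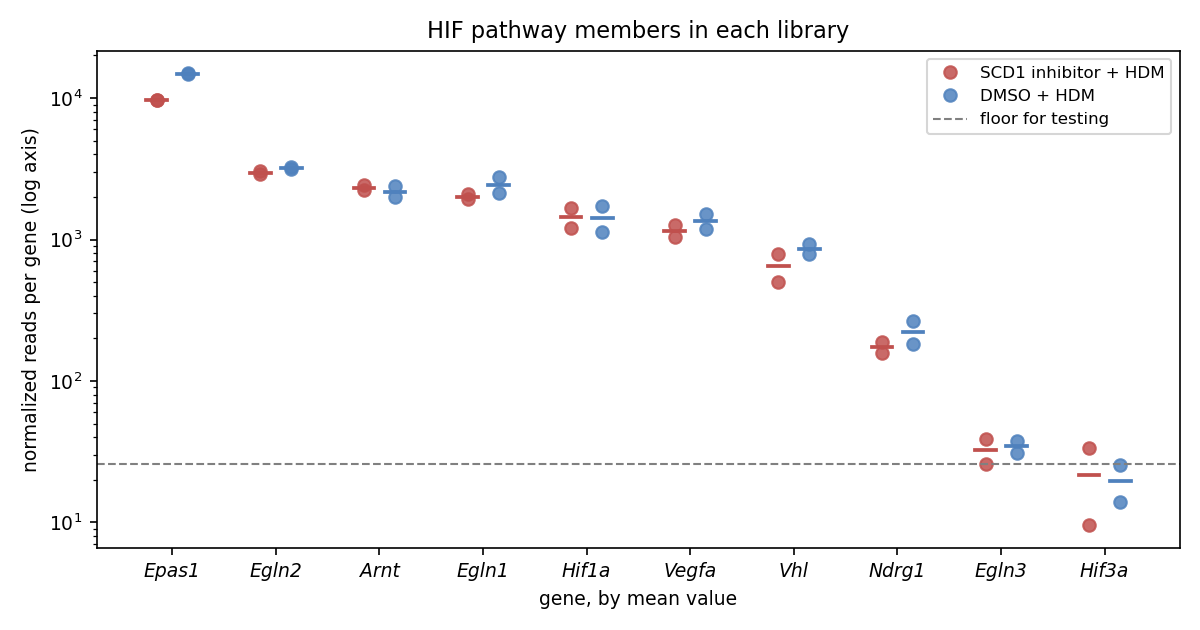
Normalised reads (log axis) of the 10 genes in each library, with SCD1 inhibitor + HDM in red and DMSO + HDM in blue; points are libraries, short lines are means of 2 and the dashed line is the floor for testing. Epas1 lies at 9649 and 9735 reads with the inhibitor and at 14951 and 14771 with DMSO, while the points of Hif1a, Arnt, Vhl, Vegfa and Ndrg1 from both groups overlap.

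The Epas1 replicates lay closer together than those of most genes tested. The higher replicate was 1.01 times the lower in both groups, and the pooled replicate SD was 0.0108 on the log2 scale. Of all genes tested, 0.261% had a smaller one. That share was not matched for level, and 1.76% of the genes tested had a higher mean value than Epas1. An SD from so few libraries is itself uncertain. The standard error above is larger than the Epas1 spread implies because limma borrows the spread of other genes.

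Over the whole data set, limma called 59 of 13810 tested genes lower with the inhibitor (0.427%; Benjamini-Hochberg adjusted p under 0.05) and 188 higher (1.36%), 1.79% in all. Of the 9 members that could be tested, 1, Epas1, was in the lower set and 0 were in the higher set. Nothing is read from that count, since the genes were picked with this contrast in view. Epas1 left the set with edgeR (10 genes called in all), in limma without its intensity trend (0 called) and when either library of the inhibitor group was left out (5 genes called without replicate 1 and 15 without replicate 2). Its log2 fold change lay between -0.63 and -0.61 in the 14 alternative analyses. In fits that leave out 1 library, the lone library of its group is assumed to vary like the pair of the other group.

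Hif1a, which encodes the alpha subunit found in most tissues, showed no such separation. It had 1675 and 1198 normalised reads in the SCD1 inhibitor + HDM libraries and 1734 and 1125 in the DMSO + HDM libraries. Replicate 1 was the higher library in both groups, by 1.40 times with the inhibitor and 1.54 times with DMSO, and the groups overlapped. The log2 fold change was 0.020 ± 0.22 (SE). It was -0.29 without DMSO replicate 2 and 0.33 without DMSO replicate 1, so its direction rested on the library left out. Hif1a lies on chromosome 12, 73901375 to 73947530, plus strand, where its exons share 148 bases with the annotated gene Gm49321 on the same strand. A longer stretch, 330 bases, is shared with the antisense gene Gm15283 on the opposite strand.

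Hif3a, whose product is known mainly as a brake on the other alpha subunits, was near the limit of detection. It had 9.56 and 33.6 normalised reads with the inhibitor and 25.3 and 13.9 with DMSO, from 10 to 32 reads in a library. The range of the inhibitor pair enclosed the DMSO pair, the mean lay under the floor of 25.8 normalised reads, and no difference could be seen at this depth.

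Set on a per-length scale, Epas1 made up most of the alpha subunit RNA in every library. Its level was 1749 and 1765 normalised reads per kb of transcript with the inhibitor and 2710 and 2678 with DMSO. The share of Epas1 among the 3 alpha subunits was 83.1% and 87.2% with the inhibitor and 88.0% and 91.8% with DMSO. The share was thus lower in both inhibitor libraries, with a gap between the nearest libraries of the groups that was smaller than the distance between replicates. Hif1a took 16.8% and 12.5% of the summed level with the inhibitor and 11.9% and 8.16% with DMSO, although its own reads overlapped between groups. The summed level of the 3 genes was 2105 and 2024 normalised reads per kb with the inhibitor and 3081 and 2918 with DMSO.

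**Figure D2:**
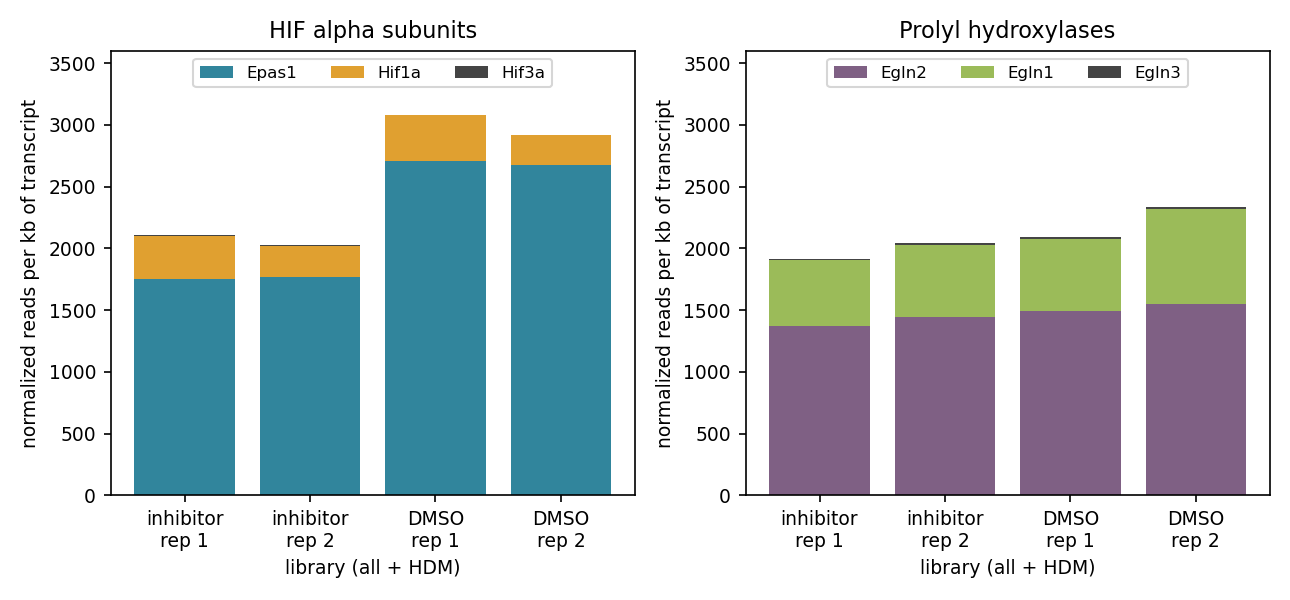
Normalised reads per kb of transcript in each library (inhibitor libraries left, DMSO right) for the 3 HIF alpha subunits and the 3 prolyl hydroxylases, stacked by gene. The alpha subunit bars reach 2105 and 2024 with the inhibitor against 3081 and 2918 with DMSO, and most of each bar is Epas1; the hydroxylase bars reach 1918 and 2040 against 2091 and 2332.

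Arnt, the partner that every alpha subunit needs to bind DNA, had 2430 and 2225 normalised reads with the inhibitor and 1990.3 and 2377 with DMSO. The groups overlapped, and the log2 fold change was 0.095 ± 0.15 (SE). Per kb, Epas1 stood at 3.11 and 3.43 times the level of Arnt in the inhibitor libraries and at 5.89 and 4.87 times in the DMSO libraries, with no overlap. The same ratio for Hif1a was 0.631 and 0.493 with the inhibitor and 0.798 and 0.433 with DMSO, where the DMSO pair enclosed the inhibitor pair.

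Among the oxygen sensors, Egln2 was the most abundant per kb and Egln3 the least. Egln2 had 2890 and 3043 normalised reads with the inhibitor and 3138 and 3264 with DMSO. Both inhibitor libraries lay below both DMSO libraries, and the log2 fold change was small, -0.11 ± 0.13 (SE). An 11-base stretch of its exons is shared with Cyp2t4, a neighbour on the opposite strand. Egln1, the hydroxylase known as the main brake on HIF in most tissues, had 1928 and 2088 normalised reads with the inhibitor and 2122 and 2764 with DMSO. These groups did not overlap either, but the DMSO pair differed by 1.30 times and the log2 fold change was -0.27 ± 0.16 (SE). It was -0.46 without DMSO replicate 1 and -0.080 without DMSO replicate 2, so the second DMSO library carried most of the Egln1 difference. With Epas1, that made 3 members without overlap between groups, where 44.9% of all genes tested had none.

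Egln3, itself a gene that rises in low oxygen in many cells, was barely present, with 25.8 and 38.8 normalised reads with the inhibitor and 31.2 and 37.7 with DMSO. Its log2 fold change was -0.059 ± 0.61 (SE), an error that leaves its direction unknown. Egln2 made up 71.5% and 70.8% of the summed hydroxylase level per kb with the inhibitor and 71.2% and 66.4% with DMSO. Egln1 made up 28.0% and 28.5% with the inhibitor and 28.2% and 33.0% with DMSO. The mix of hydroxylases thus overlapped between the groups.

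Vhl, the substrate-binding part of the ubiquitin ligase that removes hydroxylated alpha subunits, had 791 and 503.5 normalised reads with the inhibitor and 789 and 931 with DMSO. One inhibitor library was low and the other lay inside the DMSO range. The log2 fold change was -0.43 ± 0.25 (SE) with all libraries, -0.11 without SCD1 inhibitor replicate 2 and -0.74 without the first inhibitor library. The size of the Vhl difference therefore rested on the second inhibitor library.

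Vegfa and Ndrg1 stand for the response side of the pathway. Vegfa, the main growth factor for vessels and a known HIF target, had 1257 and 1044 normalised reads with the inhibitor and 1520 and 1180 with DMSO. The groups overlapped, and the log2 fold change was -0.22 ± 0.19 (SE), from -0.40 without DMSO replicate 2 to -0.042 without DMSO replicate 1. Ndrg1, a stress-response gene known to rise in hypoxia, had 158 and 188 normalised reads with the inhibitor and 182 and 264 with DMSO. These groups overlapped as well, and the log2 fold change was -0.31 ± 0.39 (SE). Without DMSO replicate 2 it was -0.072 and without DMSO replicate 1 it was -0.55. Ndrg1 shares exon bases with Gm17035 and Gm2895, both on the opposite strand.

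**Figure D3:**
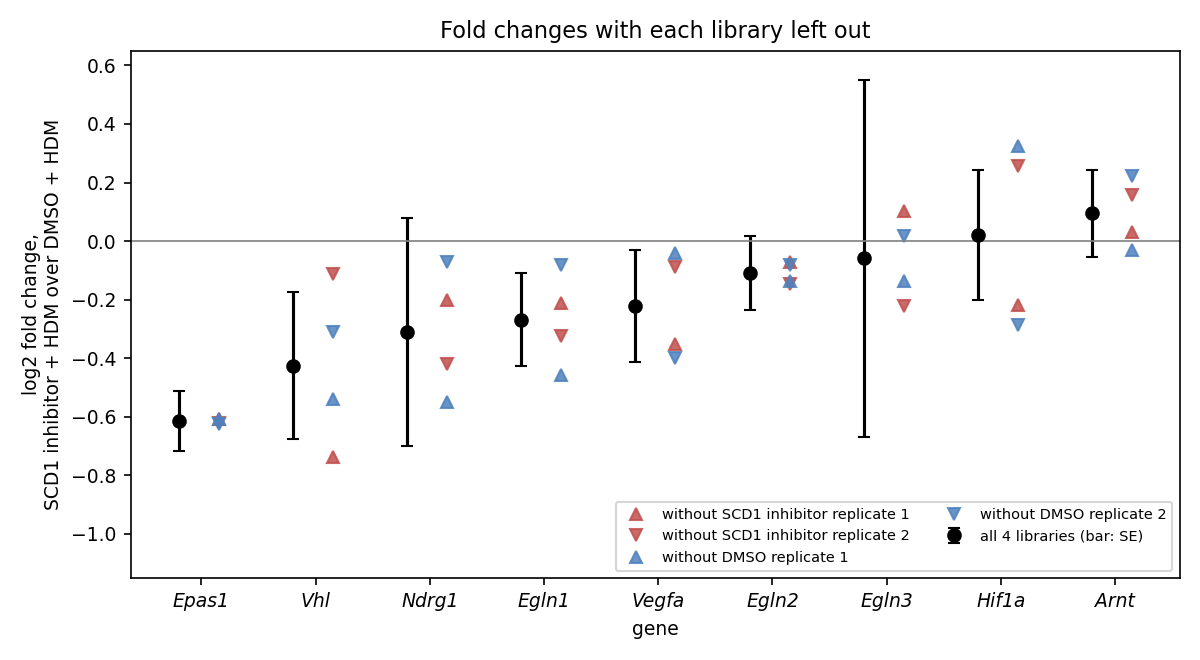
Log2 fold change of SCD1 inhibitor + HDM over DMSO + HDM for the 9 members tested; black points are all 4 libraries with the standard error, and triangles are fits without 1 library. The Epas1 triangles lie between -0.62 and -0.61, whereas those of Hif1a run from -0.29 to 0.33 and those of Vhl from -0.74 to -0.11.

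Across the 9 members tested, 7 log2 fold changes were below 0 and 2 above, with a median of -0.22, against 49.3% below 0 and a median of 0.0056 over all genes tested. In order of level per kb, the members ran Epas1, Egln2, Egln1, Arnt, Vegfa, Hif1a, Vhl, Ndrg1, Egln3 and Hif3a. Over the 4 libraries the per-kb levels of Egln1 and Arnt overlapped, as did those of Vegfa and Hif1a and those of Hif1a and Vhl. The drop from Vhl to Ndrg1 was wide, 180 to 333 against 54.6 to 91.2 normalised reads per kb. Epas1 and Egln2 did not overlap, at 1749 to 2710 and 1371 to 1549.

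Other genes of the pathway showed few calls. Of 94 listed genes tested outside the members, 1 was called lower and 1 higher, 2.13% together, close to the 1.79% of all genes. Groups did not overlap in 56 of the 94 (59.6%), against 44.9% of all genes. The listed genes had a median log2 fold change of -0.046.

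Trf, the iron carrier transferrin and a known HIF target, was the listed gene called lower. It had 6381 and 4147 normalised reads with the inhibitor and 12899 and 11395 with DMSO, so both inhibitor libraries were low. The log2 fold change was -1.23 ± 0.17 (SE, limma adjusted p = 0.00301). The call ended without SCD1 inhibitor replicate 2 (-0.92, limma adjusted p = 0.0804), with edgeR (-1.22, adjusted p = 0.0769) and in limma without the intensity trend (adjusted p = 0.453). Trf was the most abundant of the 33 tested targets of other functions, a list with 17 negative and 16 positive values and a median of -0.014. The erythropoietin gene Epo was listed at 0 in every library, and Car9 had at most 19.8 normalised reads.

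Hsp90aa1, a chaperone that steadies alpha subunits and many other proteins, was the listed gene called higher. It had 23095 and 28675 normalised reads with the inhibitor and 19313 and 14250.1 with DMSO. The log2 fold change was 0.63 ± 0.15 (SE, limma adjusted p = 0.0463). Its call ended in 9 of the 14 alternatives, among them edgeR (0.62, adjusted p = 0.183) and the fits that left out SCD1 inhibitor replicate 1 (0.79, limma adjusted p = 0.221), the second inhibitor library (0.48, limma adjusted p = 0.755) or DMSO replicate 2 (0.41, limma adjusted p = 0.0930). Of the 23 tested HIF control genes, 14 had a positive and 9 a negative log2 fold change, with a median of 0.17. The most abundant was the sister chaperone Hsp90ab1, at -0.15 ± 0.11 (SE, limma adjusted p = 0.593).

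None of 19 targets in glycolysis and glucose uptake was called by limma. Of the 19, 16 lay below 0, against 49.3% of all genes tested, with a median of -0.19. The list was chosen with earlier results known and was not tested as a set. Hk1, the hexokinase that starts glycolysis in most cells, had 2179 and 2112 normalised reads with the inhibitor and 2776 and 2955 with DMSO (log2 fold change -0.41 ± 0.14, SE, limma adjusted p = 0.173). Pfkfb3, which makes an activator of glycolysis, lay on the other side of 0. It had 232 and 249 normalised reads with the inhibitor and 103 and 75.3 with DMSO (1.22 ± 0.42, SE, limma adjusted p = 0.192). The most abundant of them was the aldolase gene Aldoa, at -0.047 ± 0.11 (SE, limma adjusted p = 0.898).

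The partners of Vegfa and the relatives of Ndrg1 gave no call in 8 and 3 tested genes. Kdr, the main signalling receptor for Vegfa, had 1144 and 876 normalised reads with the inhibitor and 1765 and 1513 with DMSO, without overlap. Its log2 fold change of -0.69 ± 0.19 (SE) had a limma adjusted p of 0.0927, and it was called with DESeq2 (-0.70, adjusted p = 0.0493), with the replicate number as a block (limma adjusted p = 0.00881) and without DMSO replicate 2 (-0.80, limma adjusted p = 0.0473). Flt4, the receptor of lymphatic vessels, was listed at 0 and at 8.39 normalised reads with the inhibitor and at 17.5 and 185 with DMSO, too uneven to read (log2 fold change -1.69, limma adjusted p = 0.348). It was called without DMSO replicate 1 (-2.83, limma adjusted p = 0.0204). Ndrg3 had -0.24 ± 0.25 (SE, limma adjusted p = 0.718) and Ndrg4 had 0.42 ± 0.59 (SE, limma adjusted p = 0.814). Among 8 tested PAS domain relatives of the HIFs there was no call either, and the circadian repressor genes Per1 and Per2 had 0.34 ± 0.14 and 0.33 ± 0.15 (SE, limma adjusted p = 0.276 and 0.326). Per1 was called without DMSO replicate 2 (0.49, limma adjusted p = 0.0496) and Per2 without DMSO replicate 1 (0.54, limma adjusted p = 0.0158).

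**Figure D4:**
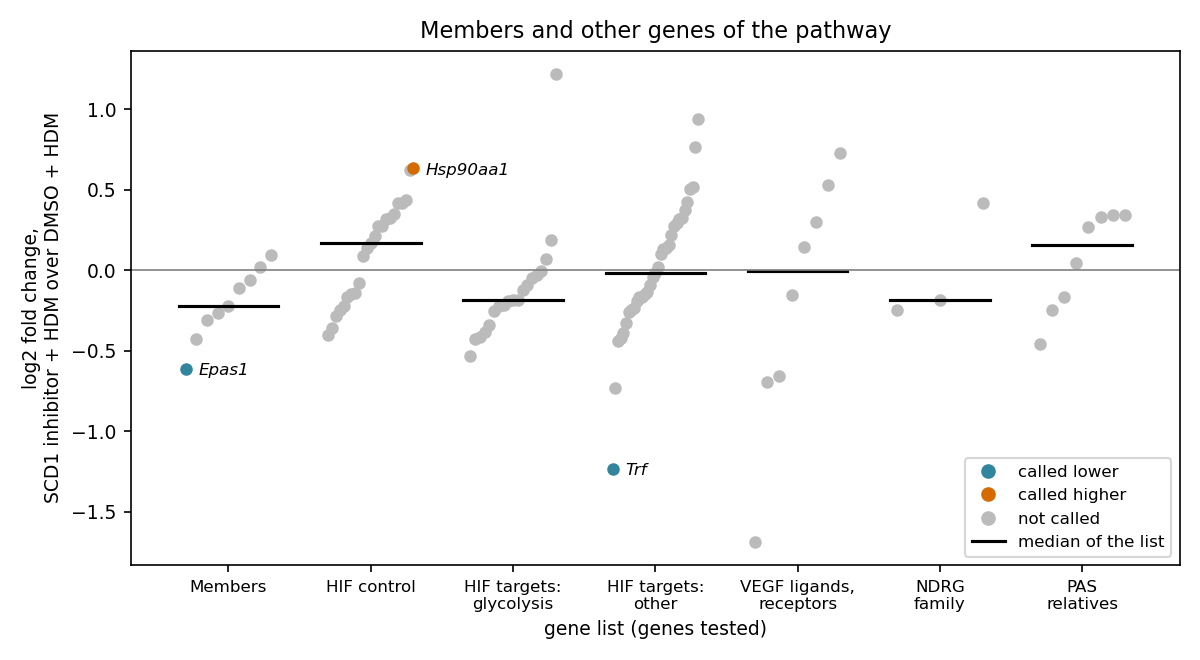
Log2 fold change of SCD1 inhibitor + HDM over DMSO + HDM for each tested gene, by list, with black lines at list medians; coloured points were called at a limma adjusted p under 0.05. Trf (-1.23) is called lower; Epas1 (-0.62) is coloured too, as a description and Hsp90aa1 (0.63) higher. The medians run from -0.22 for the members to 0.17 for HIF control genes.

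Cell type markers showed how the sorted cells of the groups compared. Of 8 general epithelial markers, 4 were below 0, 4 above and 0 called by limma. Epcam, the surface protein common to epithelia, had 6275 and 6732 normalised reads with the inhibitor and 5026 and 6466 with DMSO. Cdh1, the junction protein E-cadherin and the most abundant of them, had 40262 and 41500.5 with the inhibitor and 43869.6 and 47179 with DMSO (log2 fold change -0.15).

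Of 12 alveolar type 2 markers, 11 were below 0 and 5 (Sftpc, Sftpb, Sftpd, Abca3 and Lyz2) were called lower, and none was at 0 in any library. Sftpc, a surfactant protein gene and the most abundant, had 115828 and 100831 normalised reads with the inhibitor and 149317 and 191501 with DMSO. The summed level of the 12 was 351030.2 and 290578 normalised reads with the inhibitor and 444640.2 and 503090.1 with DMSO. Of 8 tested alveolar type 1 markers, those of the flat gas-exchange cells, 6 were below 0 and 1, the water channel gene Aqp5 (-0.85), was called lower, with summed levels of 22247 and 22944 with the inhibitor and 24010.4 and 26243 with DMSO. Emp2, the most abundant, had a log2 fold change of -0.083.

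Endothelial markers had no common direction. Of 12, 8 were below 0, 4 above and 0 called, and the groups overlapped in each. Their summed level was 2747 and 4784 normalised reads with the inhibitor and 1432 and 10239 with DMSO, so the DMSO libraries differed widely, and Emcn and Ramp2 were at 0 in DMSO replicate 1. Ptprb, an endothelial phosphatase gene and the most abundant, had 311.5 and 987 with the inhibitor and 287.5 and 2074 with DMSO.

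Epas1 was set against each of these sums. Per 1000 summed alveolar type 2 marker reads it was 27.5 and 33.5 with the inhibitor and 33.6 and 29.4 with DMSO, where the groups overlapped. Per 1000 summed alveolar type 1 marker reads it was 433.7 and 424.3 with the inhibitor and 622.7 and 562.9 with DMSO, without overlap. By mean value, that sum was led by Emp2, Hopx and Clic5, with log2 fold changes of -0.083, 0.13 and -0.017. The less abundant Ager, Aqp5 and Pdpn had -0.47, -0.85 and -0.92, and Cav1 and Akap5 had -0.24 and 0.15. The ratio to the alveolar type 1 sum therefore leans on markers that moved little. Per 1000 summed endothelial marker reads Epas1 was 3512 and 2035 with the inhibitor and 10442 and 1443 with DMSO, where the DMSO pair enclosed the inhibitor pair. In sorted bulk samples, fewer cells of a type and less RNA per cell cannot be told apart. The part of alveolar or endothelial cells in the Epas1 difference was not tested.

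The other lists went in both directions. Of 11 club cell markers, those of the secretory cells of the small airways, 11 were below 0 and 4 (Bpifa1, Scgb3a1, Scgb3a2 and Cyp2f2) were called lower, and of 10 goblet cell markers 10 were below 0 and 6 were called lower. The 5 tested basal cell markers were below 0 with 0 called and a median log2 fold change of -1.31. Of 12 ciliated cell markers 8 were above 0 and 1, the cilium gene Ccdc39, was called higher (1.42, limma adjusted p = 0.0014). Of 10 fibroblast and smooth muscle markers 9 were above 0 with 0 called and a median of 0.62, and of 8 tested macrophage and monocyte markers 4 were above 0 and 0 were called. For neutrophils and lymphocytes 1 and 2 markers reached the floor, with 0 called.

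**Figure D5:**
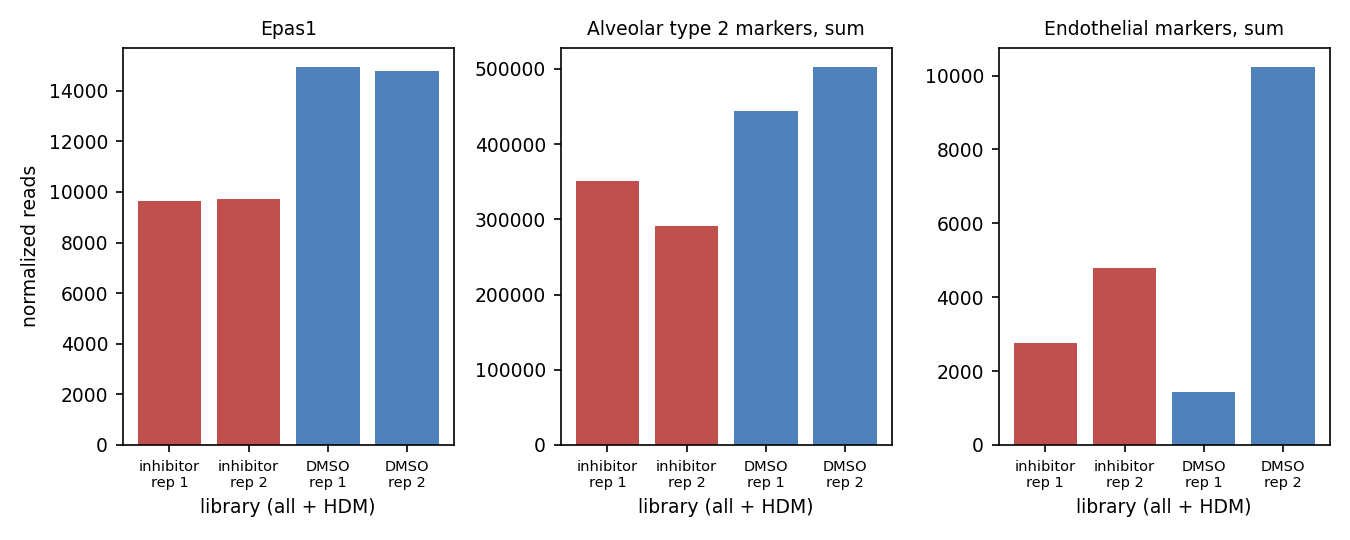
Normalised reads in each library for Epas1, for the sum of 12 alveolar type 2 markers and for the sum of 12 endothelial markers (inhibitor libraries left in red, DMSO right in blue; bars are single libraries). Epas1 and the alveolar type 2 sum are lower in both inhibitor libraries, and the endothelial sum runs from 1432 to 10239 within the DMSO pair.

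The genes with the profile most like Epas1 over the 4 libraries were Snd1, Abca3 and Npc1, with Euclidean distances of 0.0771, 0.114 and 0.133 between centred log2 values. They came from 2107 genes with a mean value of at least 0.25 of that of Epas1. Abca3, the lipid transporter of surfactant granules and 1 of the alveolar type 2 markers, had 17349.6 and 16454 normalised reads with the inhibitor and 24349.6 and 24143 with DMSO. Snd1, which encodes an RNA-binding nuclease, had 3388 and 3485 with the inhibitor and 5369 and 4963 with DMSO. Npc1, which exports cholesterol from lysosomes, had 2880.0 and 2776 with the inhibitor and 4053 and 3924 with DMSO. For Hif1a they were Phldb2, Atf7ip and Tarbp1, at distances of 0.0815, 0.0822 and 0.0886 among 9157 genes, all higher in replicate 1 of both groups.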

How the data were processed

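RNA was sequenced from sorted airway epithelium in 4 libraries, 2 per group, made with a strand-preserving kit per the labels' protocols. The deposited signal values look, from their steps, like gene-level reads scaled by a single factor in each library. HOMER, DESeq2 and mm10 appear in the submitters' processing notes, without roles. Aligner, annotation, filters and strand setting were not given in the sources used here, so reads of overlapping genes are uncertain. All values of each library were whole multiples of 1 step (100% within 0.01), and dividing by it left totals of 24591122 to 27013663 reads. In the second DMSO library the step of 0.991 is close to 1, so its reads rest on a weaker basis; recovered reads were used in edgeR 4.0.16 and DESeq2 1.42.0 alone.

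The test was limma 3.58.1 (R 4.3.3) with an intensity trend on log2(value + 25.8), where 25.8 is 1 CPM at the mean library total, for genes with a mean of at least 25.8; folds of low genes are understated. P values were adjusted by Benjamini-Hochberg over all 13810 genes tested, with a threshold of 0.05. They measure the spread between these samples, which the labels do not say came from separate mice. The code was tested on simulated data. Coordinates and transcript lengths (longest transcript) are GENCODE M21, GRCm38, the same build as mm10; 24497 symbols matched and 627 did not.

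The members and lists were chosen with earlier results of these data known. Named were all members; from each pathway or family list the genes that passed (at most 4), or else the 2 of smallest p; the most abundant gene of each such list; Epcam and the most abundant marker of lists set beside Epas1; and the 3 genes nearest to Epas1 and to Hif1a. Car9, Epo, Emcn, Ramp2, Ccdc39, the called alveolar and club cell markers and the overlapping genes were named after their values were seen. Alternatives were other pseudocounts, floors and scalings, no trend, a replicate block, edgeR, DESeq2 and each library left out.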

Additional observations from a re-analysis of the deposited data

How the results depend on the processing

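The log2 fold change of Epas1 kept its sign in all 14 alternatives, and that of Vhl, Egln1, Egln2, Vegfa and Ndrg1 did too; Hif1a, Arnt and Egln3 changed sign with the library left out, and Hif1a with edgeR too (-0.001). The number of called genes, 188 higher and 59 lower, was 51 and 13 with no floor, 0 and 0 without the intensity trend (1423 genes with an unadjusted p under 0.05, against 1944 with the trend), 7 and 3 with edgeR and 339 and 145 with DESeq2. With the replicate number as a block it was 469 and 205. The labels do not say what the numbers share, and the deviations of same-numbered libraries correlated at 0.0735 across genes. A single correlation over all genes cannot tell whether same-numbered samples were handled together, so a shared batch or pairing stays unknown. With 1 library left out, where the spread comes from the group that keeps 2, the count ran from 0 to 616 higher and from 5 to 179 lower. Among the other listed pathway genes, 1 higher and 1 lower became 0 higher with the smaller pseudocount, no floor, scaling by library sum and TMM. It became 0 and 0 without the trend and with edgeR, and 3 lower with the replicate block and with DESeq2. With 1 library left out it ran from 0 to 6 higher and from 0 to 4 lower. Other scalings moved the median log2 fold change of all genes by -0.010 (TMM) and 0.0042 (library sum). The causes were not tested. With 2 samples per group, a single library decides many calls, and Hif3a and Egln3, with 10 to 38 reads per library, allow no reading of direction.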
